A study of Mus musculus with 6 samples.

Results

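The genes described here encode the machinery that shortens, decaps and degrades messenger RNA. The list holds 44 genes in 8 groups by role, and its members were taken from probe sets of the array that name exactly 1 gene. Of these, 41 had a value among the 18193 genes with one, and 40 passed the minimum level for testing. Dcp1b, a decapping cofactor, was below that minimum on average, with log2 levels of 2.15, 2.27 and 2.41 in Dcr WT and 2.30, 2.26 and 2.17 in Dcr KO. Cnot1 and Lsm5 were present only on probe sets that also name another gene, and no probe set here was named for Upf3b.

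Messenger RNAs usually begin to decay when deadenylases remove the poly(A) tail at the 3′ end. The decapping complex can then take off the 5′ cap so that Xrn1 degrades the transcript from that end, or the exosome degrades it from the other. MicroRNAs use the same route: an Argonaute protein finds the target by the seed of the miRNA, and its partner of the GW182 family recruits the deadenylases, after which decapping follows. Some of the genes below thus act downstream in a pathway whose small RNAs depend on Dicer, and others serve further routes of RNA decay. The study describes the cells at 5 days as mostly Dcr null, with the larger part of the miRNAs lost.

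The cells were mouse embryonic stem cells, which are pluripotent cells taken from the early embryo and grown in culture. Both groups came from cells with floxed Dcr alleles, the gene for Dicer, the RNase that cuts miRNA precursors. The 3 Dcr WT arrays are of cells transfected with GFP alone and the 3 Dcr KO arrays of cells transfected with GFP and Cre recombinase, all with RNA taken 5 days later. The study describes biological triplicates from a polyclonal population grown on gelatin, and since no group had Cre with Dcr intact, the effect of Cre and that of the deletion cannot be told apart. Gene expression was read on arrays. All values below are log2 expression values, and a difference is the Dcr KO mean minus the Dcr WT mean.

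The miRNAs that define the question carry the letters AAGUGC in their seed, among them those of a cluster on chromosome 7 that is known for its high expression in these cells. Their mature sequences are shown because the study picked its candidate targets by this seed together with expression. A candidate was a predicted target up at least 1.2-fold in the knockout cells of both its data sets, Dcr KO among them. Cnot6l and Exosc4 of the genes described here stand among those candidates. The sequences are those of RefSeq for GRCm38.p6, written 5′ to 3′, with bases 2 to 8 in capitals.
miR-291a-3p: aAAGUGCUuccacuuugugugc
miR-294-3p: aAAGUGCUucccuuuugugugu
miR-295-3p: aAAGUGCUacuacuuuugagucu
miR-290a-3p: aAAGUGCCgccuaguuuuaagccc
miR-302d-3p: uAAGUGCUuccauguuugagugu
miR-20a-5p: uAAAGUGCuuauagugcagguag
The first 3 and miR-302d-3p have the same letters from base 2 to base 8, while miR-290a-3p differs at base 8. In miR-20a-5p the letters AAGUGC lie 1 base further in. The first 4 lie within 1 stretch of the plus strand of chromosome 7, from miR-290a-3p at chr7:3218674-3218697 to miR-295-3p at chr7:3220815-3220837, while miR-302d-3p lies at chr3:127545665-127545687 and miR-20a-5p at chr14:115044183-115044205, both also on the plus strand. The arrays do not measure mature miRNAs, and whether a transcript below carries a matching site was not analysed here.

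The deleted gene was checked first. Dicer1 stood at 7.78, 7.89 and 7.16 in Dcr WT and at 6.32, 6.58 and 5.92 in Dcr KO, which left 39.7% of the control signal (difference −1.33 ± 0.23 SE, adjusted p = 0.0134, limma with Benjamini-Hochberg adjustment over 8782 genes). Its brighter probe set stood at 27.9% of the control signal (adjusted p = 0.0138, limma over single probe sets). The dimmer one stood at 56.5% and did not pass (adjusted p = 0.0908), and both were lower without overlap. All 10 pluripotency markers, such as Pou5f1 and Nanog, were above the minimum, and their summed linear level was 45200 to 49600 in Dcr WT and 50000 to 51300 in Dcr KO. Of the markers of other cell types, 1 of 8 for fibroblasts, 0 of 6 for primitive endoderm, 1 of 5 for neural cells and 2 of 5 for trophectoderm reached that minimum. Their summed levels were 55.0 to 76.0 against 68.6 to 76.8 for fibroblasts, 21.6 to 22.0 against 22.6 to 23.4 for primitive endoderm, 33.9 to 40.7 against 43.7 to 45.2 for neural cells and 278 to 504 against 264 to 471 for trophectoderm, with Dcr WT first. The summed pluripotency, primitive endoderm and neural levels did not overlap between the groups. No tested marker passed in limma. At an unadjusted p of 0.05 there were 3 pluripotency markers higher and 2 lower, and 0 of the few tested from other cell types, beside 14.7% of all genes tested higher and 17.3% lower. Of the pluripotency markers, Pou5f1, Sox2, Zfp42 and Dppa5a were higher without overlap, and Tdgf1 and Utf1 lower. Of the markers below the minimum, Col3a1, Postn, Dcn, Gata6, Pax6, Sox1, Map2 and Cdx2 were higher without overlap. Col1a2 and Thy1 were lower without overlap. The part of other cells in the results below was not tested. Arrays of bulk RNA cannot tell fewer cells with a transcript from less of it per cell.

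Of the 40 genes tested, 8 passed the test, where 13.3% of all genes tested did. Of these 3 rose in Dcr KO, which is 7.50% where 6.91% of all genes tested did, and 5 fell, which is 12.5% where 6.42% of all genes did. The genes that rose were the deadenylases Cnot6 and Cnot6l and the exosome subunit Exosc1. The genes that fell were the exosome subunits Exosc3, Exosc5 and Exosc7, the LSM ring subunit Lsm4 and the poly(A) binding protein Pabpc4. Exosc3, Exosc5, Exosc7 and Lsm4 were read from 1 probe set each. In limma over single probe sets these did not pass (adjusted p = 0.0522, 0.0532, 0.0844 and 0.0558). At an unadjusted p of 0.05 there were 3 higher and 12 lower, where 14.7% and 17.3% of all genes were. Leaving out any 1 of the 6 arrays changed these counts, to 1 or 2 higher and to 0 lower (replicate 1 of Dcr WT or replicate 2 of Dcr KO left out), 1 lower (replicate 3 of Dcr WT, or replicate 1 or 3 of Dcr KO) or 2 lower (replicate 2 of Dcr WT). By the brightest probe set of each gene, 1 was higher and 8 were lower. The median difference was −0.03 over the 40 genes and −0.02 over all genes tested. The groups did not overlap in 18 of 40 genes, or 45.0%, beside 38.9% of all genes. In 14 of 40, or 35.0%, every Dcr KO array lay below every Dcr WT array, where 21.2% of all genes did so, and in 4 of 40, or 10%, every Dcr KO array lay above, where 17.7% of all genes did. Genes down at least 1.2-fold made up 30.0% of those described here and 22.0% of all genes above the minimum in Dcr WT, and genes up at least 1.2-fold made up 7.5% and 18.1%.

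**Figure D1:**
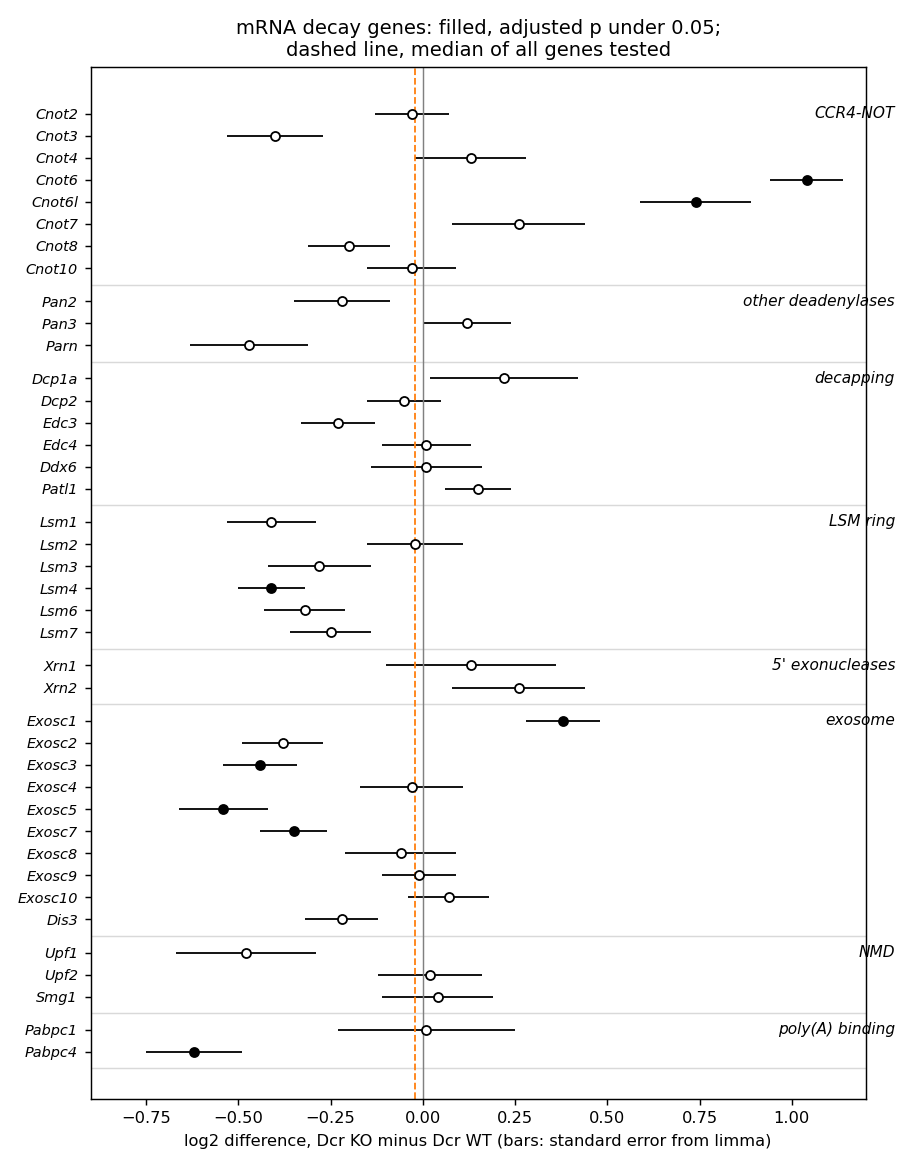
Differences on the log2 scale (Dcr KO minus Dcr WT) for the 40 decay genes tested, ordered by role, with the standard error from limma as bars and the median of all genes tested (−0.02) as the dashed line. Filled points passed the test at an adjusted p of 0.05, and of these Cnot6 stands farthest from 0 at 1.04.

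The CCR4-NOT complex, the main cytoplasmic deadenylase, held the largest rise among the decay genes tested. Cnot6 and Cnot6l encode its CCR4-type nucleases, of which a complex carries one. Cnot6 measured 9.36, 9.18 and 9.16 in Dcr WT and 10.26, 10.28 and 10.28 in Dcr KO. The lowest Dcr KO array was thus above the highest Dcr WT array, and by gene mean the Dcr KO arrays lay closer together than the controls (SD 0.01 against 0.11, n = 3 each). On its single probe sets the SD was 0.05 to 0.10 in Dcr KO and 0.01 to 0.28 in Dcr WT. Its level was 2.05-fold that of Dcr WT (difference 1.04 ± 0.10 SE, adjusted p = 0.00188, limma). It passed in all 6 fits with 1 array left out (highest adjusted p = 0.0145) and in all 8 other settings tried, with differences of 0.87 to 1.09.

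All 4 probe sets of Cnot6 were higher in Dcr KO without overlap, by 0.87, 0.47, 1.39 and 1.42 in order of brightness. The second of these, at 9.99, 9.99 and 9.86 against 10.51, 10.34 and 10.39, moved the least (adjusted p = 0.0482 over 18789 single probe sets, of which 7.75% passed). The probe sets therefore shared a direction and differed in size.

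Cnot6l, the paralog of Cnot6, measured 6.0, 6.08 and 5.70 in Dcr WT and 6.82, 6.78 and 6.40 in Dcr KO. The groups did not overlap, and its level was 1.67-fold that of Dcr WT (difference 0.74 ± 0.15 SE, adjusted p = 0.0232, limma). Since the study chose it as a candidate partly on its level in these arrays, its direction is no independent evidence about that list. It did not pass when replicate 1 or 3 of Dcr WT, or replicate 1 or 2 of Dcr KO, was left out (highest adjusted p = 0.0797). By its brightest probe set alone, at 9.57, 9.05 and 9.46 against 9.92, 9.95 and 9.68, the difference was 0.49 (adjusted p = 0.0757). A dimmer probe set, at 6.32, 5.96 and 4.95 against 7.78, 7.59 and 7.43, gave 1.86 and passed among single probe sets (adjusted p = 0.0266). Another gave 0.77 (adjusted p = 0.0356), and the last was below the minimum and differed by −0.16. Over the probe sets the difference of Cnot6l thus ran from −0.16 to 1.86, and that of Cnot6 from 0.47 to 1.42.

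The other nucleases of the complex are Cnot7 and Cnot8, of the CAF1 type, and neither passed. Cnot7 measured 9.44, 8.79 and 9.37 in Dcr WT and 9.35, 9.49 and 9.54 in Dcr KO, so the groups overlapped (difference 0.26, adjusted p = 0.342). Without Dcr WT replicate 2 the difference was 0.06. Cnot8 measured 8.74, 8.49 and 8.62 against 8.38, 8.36 and 8.52, with an overlap on 1 array (difference −0.20, adjusted p = 0.240, all from limma). By its brightest probe set in place of the gene mean it was lower by the test (difference −0.36, adjusted p = 0.0474). Among single probe sets that one did not pass (adjusted p = 0.0752). Cnot3, which forms the NOT module with Cnot2, was lower on all Dcr KO arrays, at 6.52, 6.96 and 6.61 against 6.32, 6.28 and 6.28. It did not pass (difference −0.40, adjusted p = 0.0798), except by its brightest probe set in place of the gene mean (difference −0.47, adjusted p = 0.0406). Among single probe sets the brightest of Cnot3 did not pass either (adjusted p = 0.0682). The differences of Cnot2, of the ubiquitin ligase Cnot4 and of Cnot10 were −0.03, 0.13 and −0.03.

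**Figure D2:**
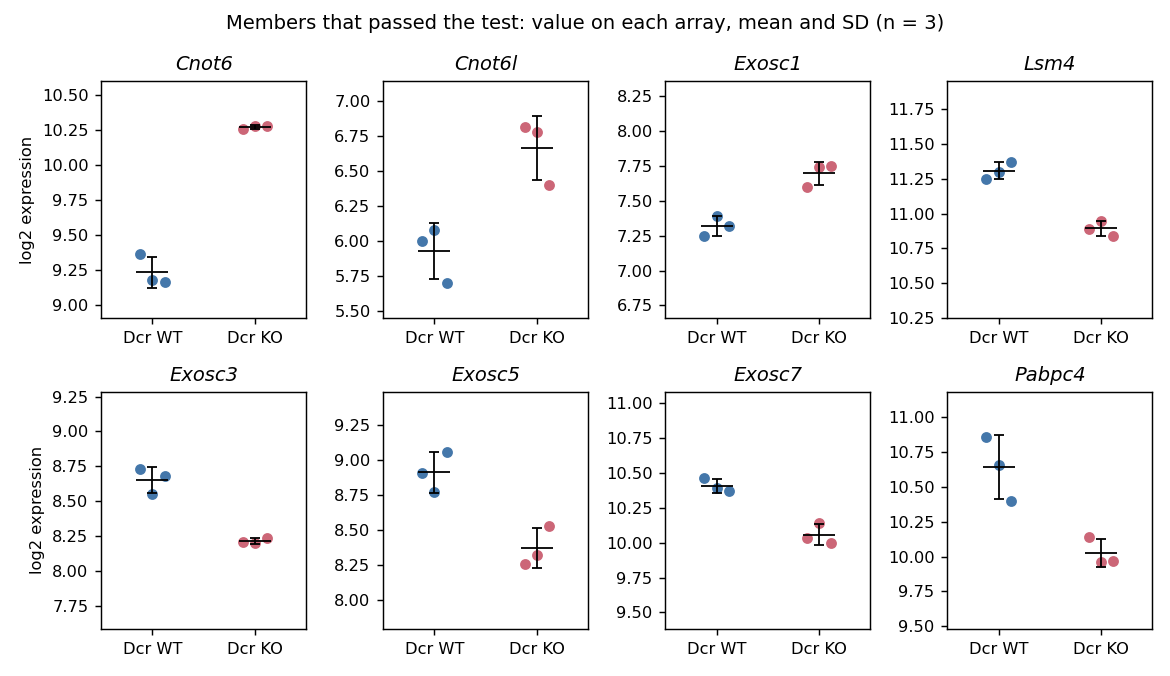
Log2 expression on each array (points) of the 8 decay genes that passed the test, with the mean and the SD of 3 arrays as bars, in panels whose axes start at different levels and have the same span. In every panel the Dcr WT and Dcr KO points do not overlap, and the gap is widest for Cnot6, from 9.36 to 10.26.

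Of the deadenylases outside the complex, 0 of 3 passed in limma, beside 13.3% of all genes. At an unadjusted p of 0.05, 1 of 3, Parn, was lower, beside 17.3% of all genes. Parn, a poly(A)-specific ribonuclease, measured 8.12, 8.45 and 8.05 in Dcr WT and 7.89, 7.88 and 7.44 in Dcr KO, lower on every array (difference −0.47 ± 0.16 SE, adjusted p = 0.0944, limma). Both of its probe sets were lower without overlap (differences −0.46 and −0.48). Pan2, the nuclease of the PAN complex, which trims long tails, measured 8.22, 8.27 and 7.93 against 8.06, 7.88 and 7.81 (difference −0.22, adjusted p = 0.265). Its partner Pan3 differed by 0.12 (adjusted p = 0.543), and both overlapped between the groups.

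By gene mean, the differences of the decapping genes ran from −0.23 to 0.22. Of these genes 0 of 6 passed in limma, beside 13.3% of all genes. At an unadjusted p of 0.05 there were also 0, beside 14.7% of all genes higher and 17.3% lower. Edc3, an enhancer of decapping and a P-body scaffold, was lower on every Dcr KO array, at 9.16, 9.23 and 9.22 against 9.05, 9.05 and 8.82 (difference −0.23, adjusted p = 0.174). Patl1, which links deadenylation with decapping, was higher on every one, at 4.47, 4.53 and 4.43 against 4.66, 4.63 and 4.60 (difference 0.15, adjusted p = 0.290). The catalytic subunit Dcp2 differed by −0.05, its cofactor Dcp1a by 0.22 (adjusted p = 0.485), the scaffold Edc4 by 0.01 and the helicase Ddx6, which binds the CCR4-NOT complex, by 0.01. The brightest probe set of Dcp1a differed by −0.08, and those below the minimum by 0.52 and 0.21. For Patl1 the brighter probe set differed by 0.25, and the other, below the minimum, by 0.05.

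The LSM ring binds the shortened 3′ end and promotes decapping, and its subunits other than Lsm1 also form a nuclear ring, with Lsm8, that takes part in splicing. All 6 subunits with a value had a negative difference, with a median of −0.30, and in 5 of 6 every Dcr KO array lay below every Dcr WT array, as in 21.2% of all genes. Only Lsm4 passed, at 11.25, 11.30 and 11.37 in Dcr WT and 10.89, 10.95 and 10.84 in Dcr KO, or 75.1% of the control level (difference −0.41 ± 0.09 SE, adjusted p = 0.0300, limma). It did not pass in any of the 6 fits with 1 array left out (highest adjusted p = 0.0864), and of 8 other settings it passed in 7.

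Lsm1, the subunit found in the cytoplasmic ring and not in the nuclear one, did not pass. It measured 7.22, 7.19 and 7.18 in Dcr WT and 6.73, 7.0 and 6.64 in Dcr KO (difference −0.41 ± 0.12 SE, adjusted p = 0.0568, limma). Dcr KO replicate 2 lay closest to the controls. Its brighter probe set differed by −0.25 (adjusted p = 0.211 in place of the gene mean), and the dimmer one, near the minimum, by −0.57 with overlap. After quantile normalization Lsm1 passed (difference −0.44, adjusted p = 0.0475). Lsm6 measured 8.16, 8.16 and 8.10 against 7.98, 7.87 and 7.63 (difference −0.32, adjusted p = 0.101), and 1 of its probe sets passed on its own, at 10.47, 10.37 and 10.50 against 10, 10.02 and 9.88 (difference −0.48, adjusted p = 0.0425). Of its other probe sets, the brightest was lower without overlap and did not pass among single probe sets (difference −0.40, adjusted p = 0.0615), although in place of the gene mean it did (adjusted p = 0.0375), another overlapped (difference −0.27, adjusted p = 0.383) and the last was below the minimum (difference −0.13). Lsm3 differed by −0.28 (adjusted p = 0.190), or −0.15 without Dcr WT replicate 3, and Lsm7 by −0.25 (adjusted p = 0.148), while Lsm2 overlapped between the groups (difference −0.02).

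**Figure D3:**
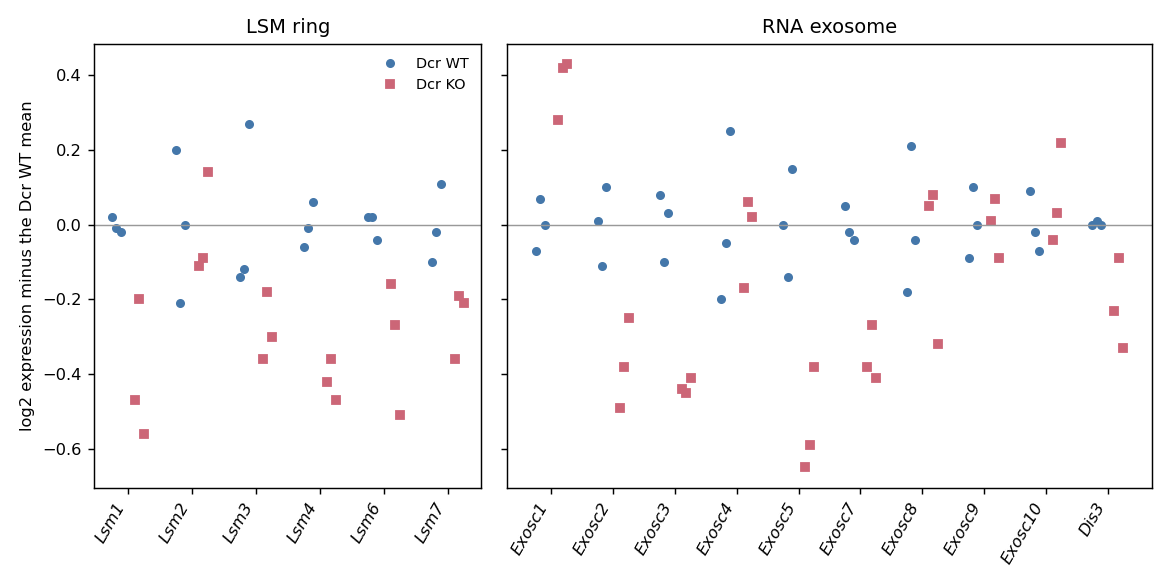
Log2 expression on each array minus the Dcr WT mean of the gene, for the 6 LSM ring genes and the 10 exosome genes tested, with Dcr WT as circles and Dcr KO as squares. The Dcr KO squares lie below all circles in 5 of 6 ring genes and in 5 of 10 exosome genes, and above them in Exosc1. Over all genes tested, every Dcr KO array lay below every Dcr WT array in 21.2% and above in 17.7%.

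The exonucleases that start from the 5′ end are Xrn1 in the cytoplasm and Xrn2 in the nucleus, and neither passed. Xrn2 measured 7.67, 7.04 and 7.63 in Dcr WT and 7.60, 7.69 and 7.82 in Dcr KO (difference 0.26, adjusted p = 0.348, limma). Dcr WT replicate 2 was the lowest array, and without it the difference was 0.05. Xrn1 was close to the minimum, at 4.75, 4.0 and 3.94 against 4.18, 4.27 and 4.63 (difference 0.13, adjusted p = 0.714).

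The RNA exosome, which degrades RNA from the 3′ end in nucleus and cytoplasm, had 1 of 10 genes higher and 3 of 10 lower, beside 6.91% and 6.42% of all genes, and is the group with the most genes tested. Its core is a ring of 6 subunits related to RNase PH with a cap of 3 RNA binding subunits, and the nucleases Dis3 and Exosc10 attach to it. Exosc5 and Exosc7 are ring subunits. Exosc5 measured 8.91, 8.77 and 9.06 in Dcr WT and 8.26, 8.32 and 8.53 in Dcr KO, or 68.6% of the control level (difference −0.54 ± 0.12 SE, adjusted p = 0.0287, limma). Exosc7 measured 10.46, 10.39 and 10.37 against 10.03, 10.14 and 10, or 78.5% (difference −0.35 ± 0.09 SE, adjusted p = 0.0486). The groups did not overlap in either gene.

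Cap subunits moved in both directions. Exosc3 measured 8.73, 8.55 and 8.68 in Dcr WT and 8.21, 8.20 and 8.24 in Dcr KO, or 73.9% of the control level (difference −0.44 ± 0.10 SE, adjusted p = 0.0272, limma). Exosc2, also of the cap, was lower on every Dcr KO array, at 5.40, 5.28 and 5.49 against 4.90, 5.01 and 5.14. It did not pass (difference −0.38, adjusted p = 0.0587), except by its brightest probe set in place of the gene mean (difference −0.61, adjusted p = 0.0318) and after centring (adjusted p = 0.0457). Among single probe sets the brightest of Exosc2 did not pass (adjusted p = 0.0568). Exosc1 was the exception, at 7.25, 7.39 and 7.32 in Dcr WT and 7.60, 7.74 and 7.75 in Dcr KO, or 1.30-fold (difference 0.38 ± 0.10 SE, adjusted p = 0.0439). Of its 3 probe sets, all with a positive difference, 1 carried most of the rise, with a difference of 0.72 at 6.97, 7.11 and 7.03 against 7.59, 7.89 and 7.79 (adjusted p = 0.0218). The brightest differed by 0.22 (adjusted p = 0.282) and the dimmest by 0.19 (adjusted p = 0.344), and both overlapped between the groups.

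The exosome calls were not firm when arrays were left out. Exosc1 and Exosc7 did not pass in any of the 6 such fits in limma (highest adjusted p = 0.151 and 0.118), and by other settings they passed in 3 and 4 of 8. Exosc3 passed only without Dcr WT replicate 2 (highest adjusted p = 0.101). Exosc5 did not pass when replicate 1 or 3 of Dcr WT, or replicate 1 or 2 of Dcr KO, was left out (highest adjusted p = 0.0975), and passed in all 8 other settings. Each of the 4 genes kept the sign of its difference throughout.

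Among the remaining exosome genes, Dis3, the exonuclease and endonuclease of the core, was lower on every Dcr KO array, at 10.94, 10.95 and 10.94 against 10.71, 10.85 and 10.61, and did not pass (difference −0.22, adjusted p = 0.176). Exosc8, Exosc9 and Exosc10 differed by −0.06, −0.01 and 0.07. Exosc4, the other candidate target of the study, measured 7.38, 7.53 and 7.83 in Dcr WT and 7.41, 7.64 and 7.60 in Dcr KO, with overlap (difference −0.03, adjusted p = 0.899). Its probe sets disagreed. The brightest differed by −0.18 and the dimmest by −0.34, both with overlap, whereas the one between them in brightness measured 7.41, 7.72 and 7.77 against 7.85, 8.16 and 8.18, higher on every array (difference 0.43, adjusted p = 0.127). The study asked for a rise of at least 1.2-fold in its candidates. The gene mean of Exosc4 here did not reach that, while the last-named probe set did, at 135% of Dcr WT.

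Nonsense-mediated decay removes transcripts with early stop codons. Of its 3 genes with a value, 0 passed in limma, beside 13.3% of all genes. At an unadjusted p of 0.05, 1 of 3, Upf1, was lower, beside 17.3% of all genes. Upf1, the central helicase of this decay, measured 7.95, 8.33 and 7.57 in Dcr WT and 7.62, 7.42 and 7.38 in Dcr KO (difference −0.48 ± 0.19 SE, adjusted p = 0.127, unadjusted p = 0.0352). Dcr WT replicate 3 lay below Dcr KO replicate 1, so the groups overlapped. Without Dcr WT replicate 2, the highest array, the difference was −0.29 (adjusted p = 0.252). Upf2 and the kinase Smg1, which phosphorylates Upf1, differed by 0.02 and 0.04.

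Poly(A) binding proteins coat the tail and must give way for it to be removed. Pabpc4 had the largest fall of the 40 genes, at 10.86, 10.66 and 10.40 in Dcr WT and 10.14, 9.96 and 9.97 in Dcr KO, or 65.1% of the control level (difference −0.62 ± 0.13 SE, adjusted p = 0.0264, limma). The groups did not overlap on either of its probe sets, which differed by −0.52 (adjusted p = 0.0557) and −0.72 (adjusted p = 0.0477). It did not pass when replicate 1 or 2 of Dcr WT, or replicate 2 or 3 of Dcr KO, was left out (highest adjusted p = 0.0887), and passed in all 8 other settings. Pabpc1, the main protein of this kind in the cytoplasm, measured 11.58, 11.66 and 10.68 against 11.39, 11.27 and 11.27 (adjusted p = 0.992). Dcr WT replicate 3 stood apart there, and without it the difference was −0.31. That array was low on the dimmer probe set, at 9.38, 9.74 and 7.76 against 9.21, 8.95 and 8.83. The brighter probe set measured 13.78, 13.57 and 13.60 against 13.57, 13.59 and 13.71 (difference −0.03 over all arrays).

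**Figure D4:**
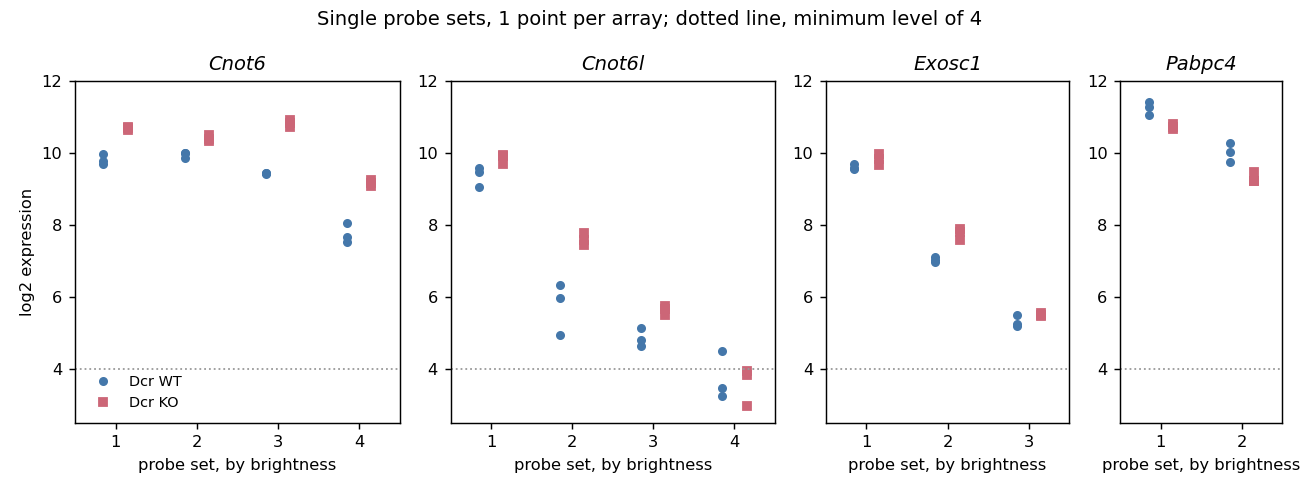
Log2 expression of the single probe sets of Cnot6, Cnot6l, Exosc1 and Pabpc4 on each array (circles Dcr WT, squares Dcr KO), with probe sets ordered by brightness and the minimum level of 4 as a dotted line. All 4 probe sets of Cnot6 and both of Pabpc4 separate the groups, as do 3 of 4 of Cnot6l and 1 of 3 of Exosc1.

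Paralogs with the same task could change unequally, and 5 pairs were compared by the difference between both genes on the same array. Exact two-sided permutation tests over 3 against 3 arrays cannot go below p = 0.1, and the values were adjusted over the 5 pairs. Pabpc4 minus Pabpc1 was −0.72, −0.99 and −0.28 in Dcr WT and −1.25, −1.31 and −1.30 in Dcr KO, without overlap (change −0.62, exact p = 0.1, adjusted p = 0.25). Cnot8 minus Cnot7 was −0.71, −0.30 and −0.75 against −0.97, −1.13 and −1.03, also without overlap (change −0.46, exact p = 0.1, adjusted p = 0.25). Cnot6l minus Cnot6 changed by −0.30 (exact p = 0.2, adjusted p = 0.333) and Xrn2 minus Xrn1 by 0.12 (exact p = 0.8, adjusted p = 0.8), both with overlap. The fifth pair, Dcp1b and Dcp1a, is not read, since Dcp1b was below the minimum level. No pair passed, which this permutation test cannot do with 3 against 3 arrays.

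The wider pathway was read from 63 further genes of decay, among them adaptors that bring deadenylases to their targets, other nucleases, terminal transferases and regulators of AU-rich transcripts. Of these 57 had a value and 48 were tested, and 4 rose (8.33%, beside 6.91% of all genes) and 0 fell (beside 6.42%), in limma. At an unadjusted p of 0.05 there were 8 higher and 1 lower, beside the 14.7% and 17.3% of all genes. Tob1, an adaptor that binds the CAF1-type deadenylases, measured 5.11, 5.07 and 5.25 in Dcr WT and 5.62, 5.57 and 5.50 in Dcr KO (difference 0.42 ± 0.10 SE, adjusted p = 0.0333). Zfp36l1, which binds AU-rich elements and recruits the CCR4-NOT complex, measured 8.76, 8.76 and 8.52 against 9.16, 9.02 and 9.06 (difference 0.40, adjusted p = 0.0484). The groups did not overlap in either gene.

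Angel2, a relative of the CCR4 nucleases, measured 6.54, 6.46 and 6.32 in Dcr WT and 6.87, 6.84 and 6.86 in Dcr KO (difference 0.42, adjusted p = 0.0338, limma). By its brightest probe set the difference was 0.13 (adjusted p = 0.641), and without probe sets of shared-sequence suffixes it was 0.50 (adjusted p = 0.124). Pde12, a mitochondrial deadenylase of the same nuclease family, measured 6.37, 6.41 and 6.53 against 6.76, 6.93 and 6.76 (difference 0.38, adjusted p = 0.0472). With 1 array left out, Tob1, Zfp36l1 and Pde12 passed in 0 of 6 fits (highest adjusted p = 0.113, 0.123 and 0.170), and Angel2 passed only without Dcr WT replicate 1 (highest adjusted p = 0.109). The median difference of the 48 genes was 0.00, beside −0.02 for all genes. Groups did not overlap in 9 genes that were higher, or 18.8%, and in 2 that were lower, or 4.17%, beside 17.7% and 21.2% of all genes.

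Promoters were searched for 2 sequence motifs on both strands, from 250 bases before to 50 after the start of each gene in RefSeq (GRCm38.p6), which 33 of the 41 genes matched. The ETS motif CCGGAAG was in 10 of 33, or 30.3%, while 22.8% of the promoters of 7215 tested genes and 9.93% of all 27025 held it. It was in Cnot6l of the 3 genes that rose and in Exosc3 of the 4 genes that fell and had a promoter in the table. The TATA motif TATAAA was in Pabpc4 alone of the 33, where 8.14% of tested genes held it. A match describes the letters in this window and is no evidence of binding.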

How the data were processed

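The deposited table gives log2 expression for 45037 probe sets on 3 Dcr WT and 3 Dcr KO arrays. GCRMA 2.20.0 and R 2.11.1 stand in the processing notes of the submitters, and a joint normalization with other arrays, which could shift values, was not tested. By GEO's annotation of the array, 34945 probe sets name 1 gene, 932 name several and 9160 have no name here. A gene's value is the mean log2 value of its probe sets that name it alone. The 8782 genes whose 6-array mean reached 16 (4 on the log2 scale) entered limma 3.58.1 (lmFit, eBayes, R 4.3.3), with Benjamini-Hochberg adjustment over them and calls at 0.05, after a trial on simulated data. The number of arrays limits the precision. Other settings were no minimum or one of 32, the brightest probe set, no probe sets with shared-sequence suffixes, centring, quantile normalization, a trend with robust variances, a replicate block, and each array left out. Fits on single probe sets and the 1.2-fold count were added after seeing the data. The members and lists were chosen with earlier results of these data known. Named by rule were members past the threshold, the 3 with the smallest adjusted p in each role, the study's candidates and paralogs, and the other members are given to account for each. Arrays correlated at 0.9922 to 0.9972 within groups and 0.9837 to 0.9936 across groups, and all were kept.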

Additional observations from a re-analysis of the deposited data

How the results depend on the processing

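The calls on single decay genes rest on few arrays. Leaving out 1 array in turn left 1 to 2 decay genes higher and 0 to 2 lower, where the full set gave 3 and 5. Over all genes the same fits left 220 to 465 higher and 137 to 376 lower, beside 607 and 564, and of the other decay genes 0 to 1 higher and 0 to 1 lower, beside 4 and 0. These fits have fewer samples. By the brightest probe set, 1 decay gene was higher and 8 lower, the median of the decay genes was −0.10, and 1 other decay gene was higher. Cnot3, Cnot8, Exosc2 and Lsm6 were called lower in that setting. Other decay genes called higher numbered 2 with no minimum level, 1 without probe sets of shared-sequence suffixes and 2 after quantile normalization, and 1 was called lower with no minimum and 1 without those suffixes. The cause was not tested. Cnot6 and Dicer1 passed under every setting and with each array left out.

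The replicate numbers were not taken as a pairing, since the deviations of same-numbered arrays correlated at −0.217, −0.022 and 0.029. Those of differently numbered arrays correlated at −0.227 to 0.314, highest for Dcr WT replicate 2 with Dcr KO replicate 1. Whether such arrays belong together was not tested. With the replicate block, 2 decay genes were higher (Cnot6 and Cnot6l) and 2 lower (Exosc5 and Pabpc4), over all genes 354 were higher and 243 lower, and of the other decay genes 0 were higher and 1 lower.

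Differences changed sign in genes that did not pass, several of them near 0. The largest of these genes in the main setting was Dcp1a at 0.22, and the change of Dcp1b minus Dcp1a was −0.25 there. By the brightest probe set the sign was reversed at 0.03 for Cnot10, 0.01 for Cnot2, −0.08 for Dcp1a and −0.10 for Ddx6. It was also reversed at −0.03 for Pabpc1, −0.05 for Smg1 and −0.18 for Upf2. The change of Dcp1b minus Dcp1a was then 0.16, with Dcp1b below the minimum level. Centring gave −0.00 for Ddx6, −0.00 for Edc4 and −0.01 for Pabpc1. Quantile normalization gave −0.01 for Ddx6 and −0.01 for Upf2. Without the suffixed probe sets Exosc4 was at 0.12 and Pan3 at −0.02. With 1 array left out, the differences ranged from −0.11 to 0.06 for Cnot10, −0.07 to 0.02 for Cnot2, −0.01 to 0.23 for Cnot4, −0.10 to 0.01 for Dcp2, −0.12 to 0.12 for Ddx6, −0.09 to 0.07 for Edc4, −0.01 to 0.12 for Exosc10, −0.13 to 0.10 for Exosc4, −0.15 to 0.07 for Exosc8, −0.05 to 0.04 for Exosc9, −0.12 to 0.09 for Lsm2, −0.31 to 0.18 for Pabpc1, −0.10 to 0.18 for Smg1, −0.11 to 0.11 for Upf2, −0.01 to 0.40 for Xrn1 and −0.03 to 0.36 for the change of Xrn2 minus Xrn1.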
